A study of Mus musculus with 9 samples.

Results

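The genes described here are the mouse developmental regulators of the Hox, Pax, Sox, Lhx, Nkx, Dlx, Tbx, Gata, Irx, Zic and Fox families, and of the family of *Six3* and *Six6*. They were taken from the GENCODE annotation of the mm10 genome as all autosomal protein-coding genes whose symbol is a family name followed by a number (for the Hox and Fox families, by a letter and a number). This gave 168 of the 20807 autosomal protein-coding genes, and 7 more genes on the X chromosome were left out. The measurements are methylated DNA immunoprecipitation (meDIP) sequencing of the hypothalamus, for which the authors' table lists 12949 differentially methylated regions (DMRs), 12845 of them on autosomes. A DMR was assigned to a gene when it overlapped the gene body or lay within 10 kb of it. By this rule 40 of the 168 genes (23.8%) had a DMR, against 29.9% of all autosomal protein-coding genes, and 64 DMRs lay at them. Each had been called by the authors' own test between the groups, whose results are not used here. A single DMR was assigned to *Hoxa9*, *Hoxa10* and *Hoxa11* together, so the 64 DMRs form 66 combinations of a gene and a DMR.

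All animals were male C57/Bl6 mice, and tissue was taken on postnatal day 6. Pups of the modified maternal separation (MMS) group spent 1.5 h on each of postnatal days 4 to 6 beside the home cage, where they were turned onto their backs, and their male littermates were the controls. At random, the DNA of 10 animals per group was combined into 3 pools per group, which gave 3 control and 3 MMS meDIP libraries, beside 1 control input, 1 MMS input and 1 IgG library. The labels name the antibody BI-MECY for the inputs and the IgG library as well. In meDIP an antibody pulls down fragments with methylated cytosine, so read numbers at a site grow both with how methylated it is and with how many CpG sites it has. Each value given below is the authors' mean over the 3 pools of a group, in normalised reads or as their log2. There are no values per pool in the table, so the spread between pools is not known here, no test between groups was run, and animals of 1 pool cannot be separated. The tissue is a mixture of cells, and in its DNA a different share of a cell type and a different methylation within a cell cannot be told apart. The labelled tissue could not be checked either, since DNA carries no expression markers.

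The families encode transcription factors that bind DNA through a homeodomain, a paired domain, an HMG box, a forkhead domain, a T-box or zinc fingers. They lay out the body axis, divide the neural tube into territories and fix the identity of neurons, glia and many other cells. In the hypothalamus, *Nkx2-1*, *Six3*, *Six6*, *Lhx2* and *Sox2* are known for roles in its patterning and growth. Genes of this kind often sit in stretches rich in CpG sites that carry little DNA methylation, while DNA methylation in introns and flanks varies between cell types.

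The following 7 DMRs show the range of sequence that the results rest on, and their reference sequence (mm10, forward strand) is given with every CpG site in capitals. The DMR with the largest difference towards MMS lay in intron 2 of *Foxn3*, and its central 300 bases (chr12:99366402-99366701) hold 6 CpG sites. The DMR with the largest difference towards control lay downstream of *Nkx6-1* (chr5:101651568-101651751, 184 bases, 1 CpG site). The only DMR in a Hox cluster lay within the *Hoxa10* gene (chr6:52235575-52235761, 187 bases, 1 CpG site). The DMR of *Lhx2*, one of the genes of hypothalamic development, is shown by its central 300 bases (chr2:38358014-38358313, 5 CpG sites). The *Pax5* DMR lay in the promoter of an internal start (chr4:44646000-44646252, 253 bases, 4 CpG sites). The *Sox5* DMR was the most CpG-dense of all 64 (chr6:143997645-143997875, 231 bases, 11 CpG sites). For *Pax2*, the 250 bases before a transcription start that RefSeq places inside the DMR are shown (chr19:44746351-44746600, GRCm38.p6, 5 CpG sites).
Foxn3: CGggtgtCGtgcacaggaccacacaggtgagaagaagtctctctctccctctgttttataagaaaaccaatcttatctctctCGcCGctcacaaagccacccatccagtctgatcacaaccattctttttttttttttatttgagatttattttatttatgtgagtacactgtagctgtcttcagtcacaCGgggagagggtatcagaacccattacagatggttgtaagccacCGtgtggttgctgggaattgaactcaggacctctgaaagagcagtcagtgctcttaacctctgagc
Nkx6-1: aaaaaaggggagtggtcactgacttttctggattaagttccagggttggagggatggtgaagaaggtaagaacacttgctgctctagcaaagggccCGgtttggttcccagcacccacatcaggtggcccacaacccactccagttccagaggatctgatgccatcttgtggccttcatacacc
Hoxa10: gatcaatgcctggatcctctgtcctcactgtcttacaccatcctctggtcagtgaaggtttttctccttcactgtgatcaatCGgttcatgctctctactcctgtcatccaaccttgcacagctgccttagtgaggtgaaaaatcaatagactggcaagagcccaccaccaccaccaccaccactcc
Lhx2: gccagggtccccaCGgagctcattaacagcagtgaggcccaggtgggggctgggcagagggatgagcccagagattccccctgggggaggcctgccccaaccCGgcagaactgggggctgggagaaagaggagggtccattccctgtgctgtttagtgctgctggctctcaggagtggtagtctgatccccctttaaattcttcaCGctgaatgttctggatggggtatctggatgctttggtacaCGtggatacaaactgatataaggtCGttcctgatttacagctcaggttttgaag
Pax5: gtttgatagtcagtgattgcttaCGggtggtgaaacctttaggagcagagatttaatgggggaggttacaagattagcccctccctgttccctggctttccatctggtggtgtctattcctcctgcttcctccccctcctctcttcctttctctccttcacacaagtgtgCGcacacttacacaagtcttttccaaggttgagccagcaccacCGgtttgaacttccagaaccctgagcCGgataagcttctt
Sox5: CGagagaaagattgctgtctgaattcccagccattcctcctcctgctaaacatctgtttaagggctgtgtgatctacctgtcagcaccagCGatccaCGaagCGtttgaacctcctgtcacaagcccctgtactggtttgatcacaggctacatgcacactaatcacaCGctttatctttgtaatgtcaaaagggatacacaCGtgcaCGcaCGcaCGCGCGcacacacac
Pax2: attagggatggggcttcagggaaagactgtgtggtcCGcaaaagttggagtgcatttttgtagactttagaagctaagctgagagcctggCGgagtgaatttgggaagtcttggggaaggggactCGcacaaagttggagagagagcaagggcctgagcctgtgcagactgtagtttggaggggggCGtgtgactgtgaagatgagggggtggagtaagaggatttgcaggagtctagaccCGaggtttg

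The *Nkx6-1* and *Hoxa10* stretches have 1 CpG site each. The sites of the *Sox5* stretch are crowded towards its end. Over all 64 DMRs the median CpG density was 1.49 per 100 bp, compared with 1.32 over all autosomal DMRs. Only the *Sox5* DMR (1.56%) had a GC content of at least 50% with an observed to expected CpG ratio of at least 0.6 over at least 200 bp, compared with 0.436% of all autosomal DMRs. The starts of the genes were much richer in CpG. Within 500 bp of the outer gene start the median was 5.84 CpG per 100 bp over the 168 genes and 4.3 over all autosomal protein-coding genes. The DMRs were thus well below the CpG density at the starts of the same genes. The regulators with a DMR had a median of 6.69 CpG per 100 bp at the start and those without had 5.59.

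The share of genes with a DMR was lower among the regulators than among all genes, in both directions of difference. A DMR with the higher mean in MMS was found at 28 genes (16.7%, against 21.0% of all genes), and a DMR with the higher mean in control at 19 genes (11.3%, against 14.0%). DMRs overlapped the body of 17 regulators (10.1%), while 19.7% of all genes had one in the body. DMRs centred in a promoter (up to 1000 bp before or 100 bp after any transcript start) were seen at 5 regulators (2.98%, against 1.61%). DMRs of both directions were found at 7 regulators (4.17%, against 5.12% of all genes), DMRs higher in MMS alone at 21 (12.5%, against 15.9%) and DMRs higher in control alone at 12 (7.14%, against 8.88%).

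The regulators were also mostly short, and whether length accounts for the lower share was not tested. The median regulator was 6.32 kb long and the median gene 17.6 kb. Among genes under 10 kb, 16 of 109 regulators (14.7%) and 15.4% of all genes had a DMR. From 10 to 30 kb it was 4 of 28 regulators (14.3%) and 24.3% of all genes. From 30 to 100 kb the order turned, with 14 of 24 regulators (58.3%) and 39.6% of all genes. Over 100 kb, 6 of the 7 regulators (85.7%) and 68.8% of all genes had a DMR. Those 6 were *Sox5*, *Foxp1*, *Sox6*, *Foxp2*, *Foxn3* and *Pax5*, which held 26 of the 64 DMRs, and the remaining gene, *Tbx15* (114 kb), had none. Per length of gene body and flanks, the regulators carried 7.56 DMRs per Mb and all genes 6.36. Whether these shares differ beyond chance was not tested.

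**Figure D1:**
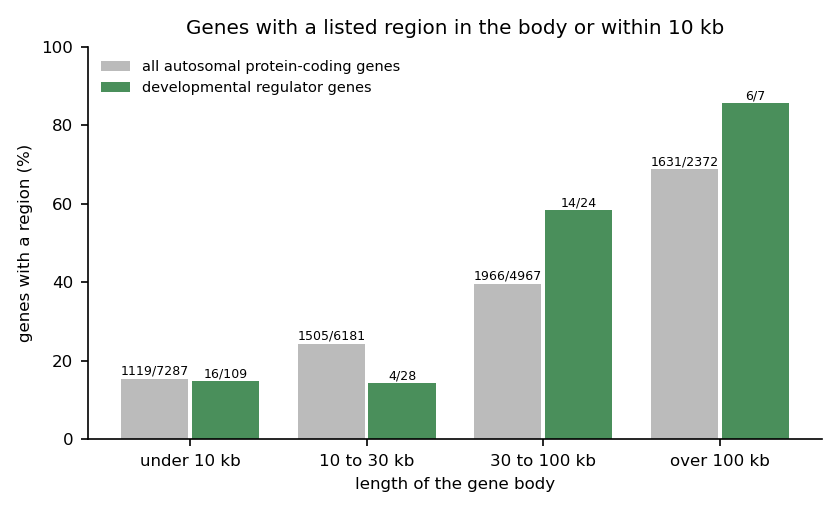
Share of genes (%) to which a DMR was assigned, by length of the gene body, for all autosomal protein-coding genes (grey) and the 168 developmental regulators (green). The numbers over the bars are genes with a DMR over genes in the class. The share rose with length in the grey bars, and the green bars were below the grey in both short classes and above them in both long classes.

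The shares of genes with a DMR in the families are to be read against the 29.9% of all genes. The 41 forkhead genes had 31 DMRs at 15 genes (36.6%), and the 18 Sox genes, which include regulators of neural progenitors and glia, had 15 DMRs at 8 genes (44.4%). The 9 Pax genes, known from neural tube, eye, kidney and B cell development, had 7 DMRs at 4 genes (44.4%). The T-box genes had 4 DMRs at 4 of 12 genes (33.3%), and the Lhx (2 of 8 genes, 25%) and Dlx (2 of 6 genes, 33.3%) families had 2 DMRs each. Several of these shares were near that of all genes, and no difference between families was tested. The 14 Nkx genes and the 5 Gata genes had 1 DMR each. No DMR lay at any of the 6 Irx or 4 Zic genes, nor at *Six3* or *Six6*, the genes of their family that are described here.

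Of 39 Hox genes, which give cells their position along the body axis, 3 (7.69%) had a DMR, the same one. The median Hox gene was 3488 bp long, and 15.4% of all genes under 10 kb had a DMR. The Hoxa cluster (11 genes over 105 kb) held the single DMR, and the Hoxb (174 kb), Hoxc (116 kb) and Hoxd (96.8 kb) clusters held none. In the clusters and 100 kb on either side there were 3 DMRs at Hoxa, 1 at Hoxb, 2 at Hoxc and 1 at Hoxd. The table lists called DMRs alone, so these counts do not say how much methylation a cluster carried.

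**Figure D2:**
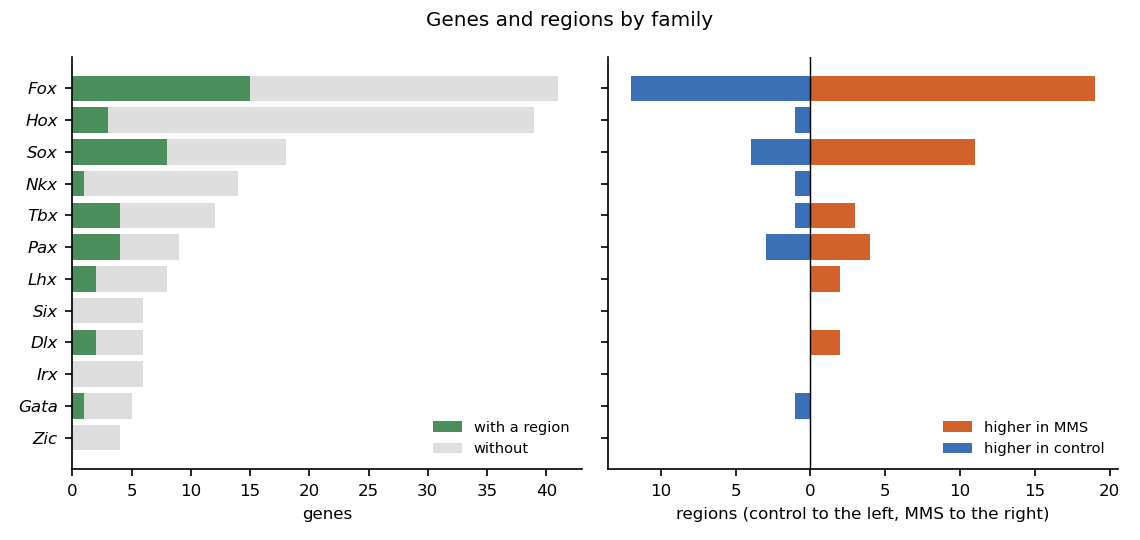
Number of genes with and without a DMR in each family (left) and number of DMRs with the higher mean in control, drawn to the left of 0, or in MMS, drawn to the right (right panel). Fox and Sox genes held most DMRs, 1 DMR lay at the 39 Hox genes, and rows without bars in the right panel had no DMR.

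In direction and size the DMRs at the regulators were close to those of the whole genome. Of the 64 DMRs, 41 had the higher mean in MMS (64.1%, against 62.4% of all autosomal DMRs) and 23 the higher mean in control. The median difference was 3.43 on the log2 scale for DMRs higher in MMS (3.43 over all autosomal DMRs) and -1.93 for those higher in control (-1.73). In 21 of the 41 DMRs higher in MMS (51.2%, against 48.2% of all autosomal ones) the control mean stood at the lowest control value in the table, 0.889 normalised reads (log2 of -0.17). The differences of these 21 ran from 3.31 to 5.68 and depend on where that lowest value was set. Among the 43 DMRs with both groups above their lowest values, 46.5% were higher in MMS, compared with 47.1% of such autosomal DMRs. At the regulators this limit takes out only DMRs higher in MMS, so the share could only fall. In the 20 DMRs higher in MMS with a measurable control, the control mean was 1.41 to 20.0 normalised reads, the MMS mean 9.92 to 48.5 and the difference 1.23 to 3.91.

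In the DMRs higher in control, the control means ran from 12.0 to 69.1 normalised reads (median 34.8) and the MMS means from 1.64 to 37.5 (median 9.13). None of these 23 DMRs had MMS at its lowest value, compared with 3.83% of all autosomal DMRs higher in control.

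**Figure D3:**
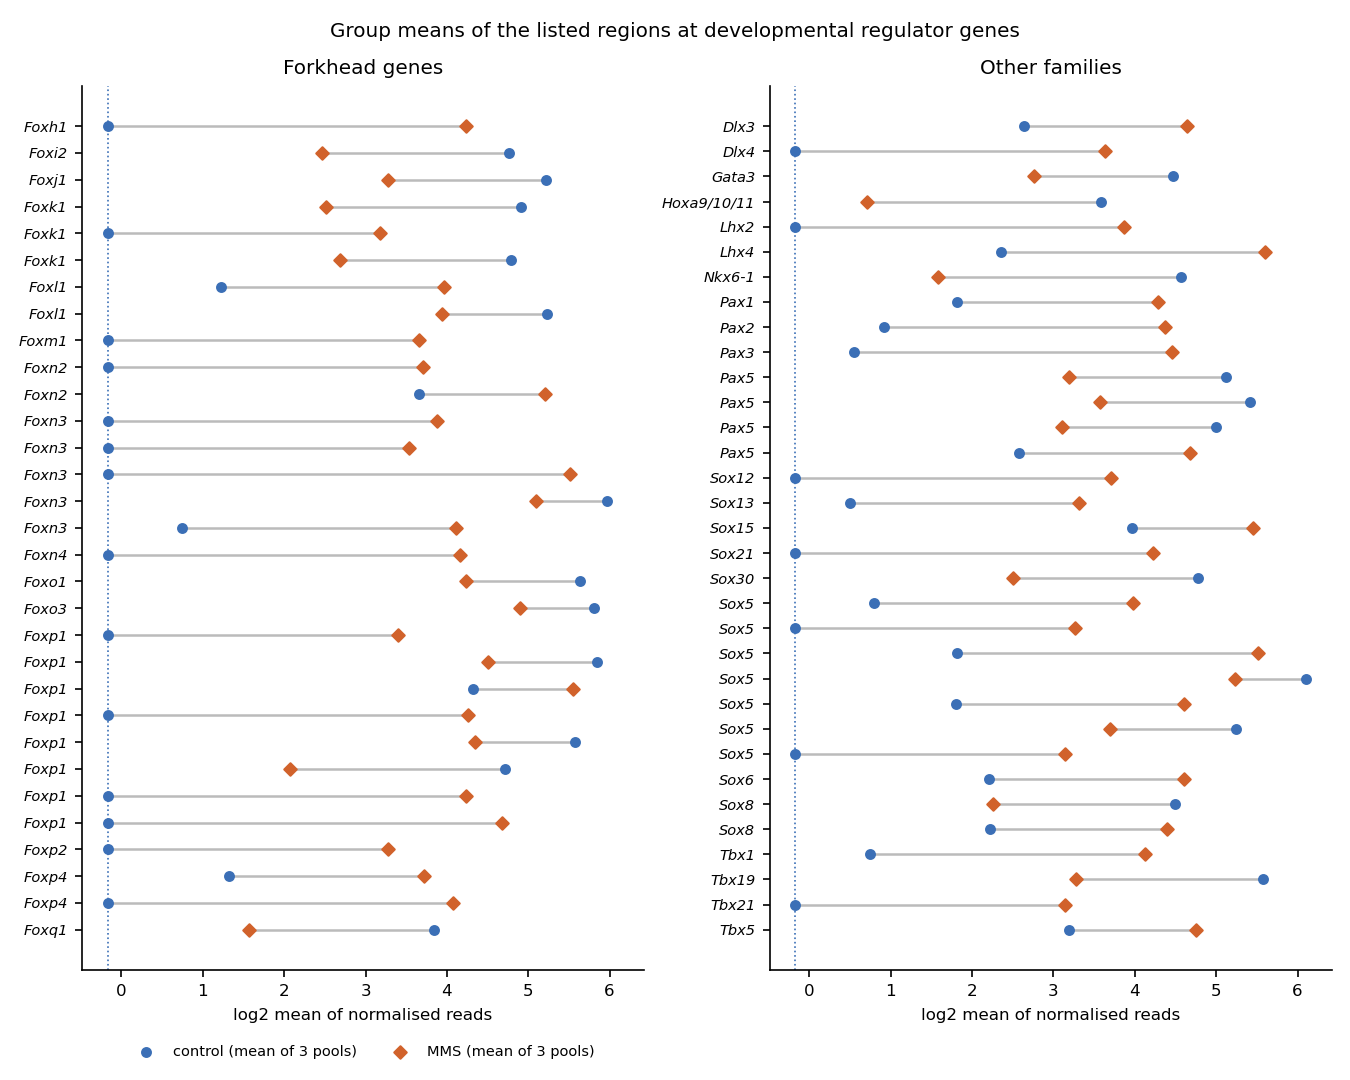
Authors' mean of the 3 control pools (blue circles) and the 3 MMS pools (orange diamonds) for each of the 64 DMRs, as log2 of normalised reads, with forkhead genes on the left and the other families on the right. Grey lines join both means of a DMR and the dotted line marks the lowest control value, -0.17, on which 21 DMRs sit. No error bars can be drawn since values per pool are not in the table.

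**Figure D4:**
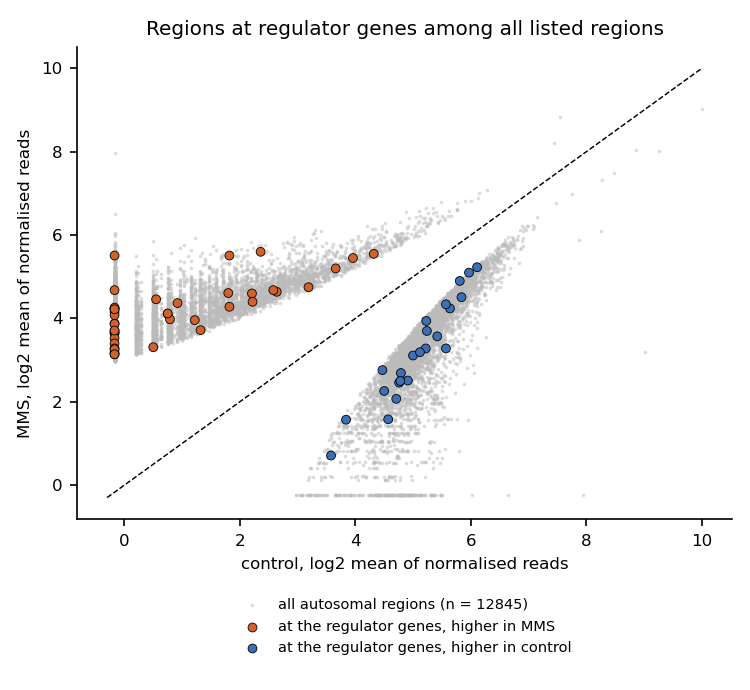
Control mean against MMS mean (log2 of normalised reads) for all 12845 autosomal DMRs (grey) and the DMRs at the regulators, higher in MMS (orange) or in control (blue). The dashed line marks equal means. The coloured points fall within both grey clouds, and the column of orange points at the left has control at its lowest value.

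The neuronal forkheads held most of the forkhead DMRs. Of 10 such genes, chosen for known roles in neurons or in insulin and stress signalling, 7 had a DMR. Of their DMRs, 13 were higher in MMS (62.4% of all autosomal DMRs were) and 8 in control. These genes are long, with a median of 72.7 kb, and of all genes from 30 to 100 kb 39.6% had a DMR. Over 100 kb it was 68.8%. *Foxp1*, a forkhead repressor needed for neuronal identity in cortex, striatum and motor neurons, had 8 DMRs, the most of any regulator. Towards its 3′ end lay 4 DMRs. The DMR at the last exon, exon 18 (chr6:98930109-98930376), had 0.889 normalised reads in control and 18.9 in MMS (difference 4.41), and it also lay beside the start of an internal transcript. Only 4602 bp away, the DMR at exon 17 (chr6:98934979-98935861) had 26.2 in control and 4.2 in MMS (-2.64). This was the largest difference towards control at any forkhead gene. Another DMR, 5141 bp downstream of the gene (chr6:98919756-98920197), had 0.889 in control and 25.6 in MMS (4.85), and the one in intron 8 (chr6:98990947-98991463) had 47.5 in control and 20.3 in MMS (-1.23).

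The other 4 DMRs of *Foxp1* lay further towards the 5′ end. In intron 4 (chr6:99019787-99020246), control had 0.889 normalised reads and MMS 19.2 (4.43). Near the 5′ end, control had 57.3 and MMS 22.8 at 42433 bp from the outer start (chr6:99479664-99480912, difference -1.33), and control had 20.0 and MMS 46.9 at 72462 bp (chr6:99449908-99450610, difference 1.23). Both groups therefore had clear signal at these sites, with opposite directions. The last one, 3258 bp upstream (chr6:99525979-99526527), had 0.889 in control and 10.6 in MMS (3.57). The upstream DMR and both near the 5′ end also lie within the coding annotation *Gm20696*, so they cannot be given to *Foxp1* alone.

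*Foxn3*, a forkhead repressor linked to the cell cycle checkpoint, had 5 DMRs, and 4 were higher in MMS. The DMR in intron 2 whose sequence is shown above (chr12:99366214-99366890) had 0.889 normalised reads in control and 45.6 in MMS. Its difference of 5.68 was the largest among the 64. Both DMRs in intron 1 also had control at 0.889, with 11.6 in MMS at chr12:99394336-99394595 (3.70) and 14.7 at chr12:99426481-99427301 (4.05). The former was centred 668 bp upstream of an internal transcript start and so counted as a promoter DMR. In intron 5 (chr12:99200436-99201441) both groups had high signal, 62.7 in control and 34.3 in MMS (-0.87), the smallest difference towards control. Downstream of the gene (chr12:99183399-99183854), control had 1.68 and MMS 17.3 (3.36).

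*Foxk1*, which represses genes of autophagy and metabolism, had 3 DMRs. In intron 2, a DMR (chr5:142437027-142437353) with 0.889 normalised reads in control and 9.06 in MMS (3.35) lay 5066 bp from one (chr5:142442420-142443527) with 27.7 in control and 6.45 in MMS (-2.10). The former was 76.1% repeat sequence. A DMR 8540 bp upstream (chr5:142392228-142392957) was higher in control (30.1 against 5.7, -2.40). *Foxo1* and *Foxo3*, the forkheads switched off by insulin signalling, each had 1 intronic DMR that was higher in control. The *Foxo1* DMR (chr3:52277049-52278231) had 49.9 normalised reads in control and 18.9 in MMS (-1.40). The *Foxo3* DMR, the widest of the 64 at 2572 bp (chr10:42217759-42220330), had 56.1 and 29.9 (-0.91).

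The remaining P-class forkheads had DMRs that were higher in MMS. *Foxp2*, known for its role in vocal and motor circuits, had 1 DMR in intron 3 (chr6:15192879-15193828), with 0.889 normalised reads in control and 9.71 in MMS (3.45), although the gene spans 541 kb. *Foxp4* had 2.5 in control and 13.2 in MMS in intron 1 (chr17:47918863-47919496, difference 2.40), and 0.889 and 16.9 at 5441 bp downstream (chr17:47861115-47861692, difference 4.25). No DMR lay at *Foxo6* or *Foxk2*, which belong to this group.

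**Figure D5:**
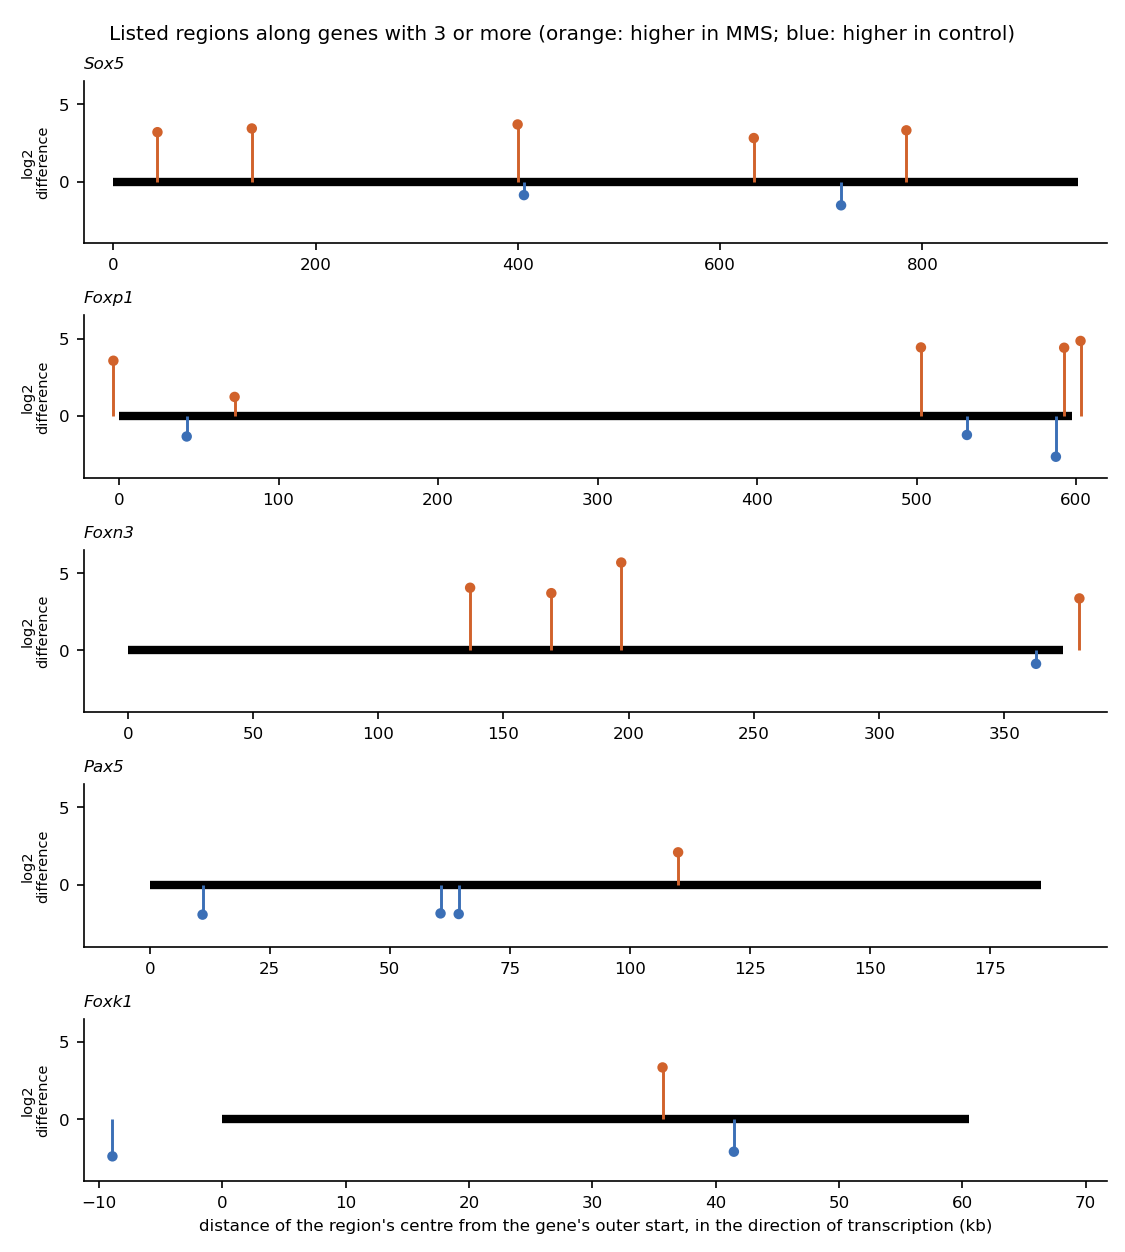
DMRs along the 5 regulators with 3 or more DMRs, placed by the distance of their centre from the outer gene start in the direction of transcription (kb), with the height giving the log2 difference of MMS minus control. The black bar is the gene body, orange marks DMRs higher in MMS and blue marks DMRs higher in control. All 5 genes carry DMRs of both directions.

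Genes of glia and ependyma had 12 DMRs. Of 9 such genes, 5 had DMRs, against 29.9% of all genes. *Sox5* and *Sox6* are over 100 kb long, where 68.8% of all genes had one, and the other 3 under 10 kb, where 15.4% had one. Of the DMRs, 7 were higher in MMS (62.4% of all autosomal DMRs were) and 5 in control, and 7 belonged to *Sox5*. *Sox5*, which times the maturation of oligodendrocytes and of deep-layer cortical neurons, spans 954 kb. Of its DMRs, 5 were higher in MMS and 2 in control, and all were within the gene body away from exons. The DMR with the highest signal (chr6:144375321-144376597) had 69.1 normalised reads in control and 37.5 in MMS (-0.88). The neighbouring one, 5195 bp away (chr6:144381793-144382640), had 3.53 in control and 45.6 in MMS (3.69). The CpG-dense DMR in intron 6 had 0.889 in control and 8.82 in MMS (3.31). The other DMRs of *Sox5* ran from -1.54 to 3.43.

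*Sox6*, the partner of *Sox5* in these cells, spans 568 kb but had a single DMR, in intron 2 (chr7:115829782-115830617), with 4.63 normalised reads in control and 24.3 in MMS (2.39). *Sox8*, a relative of *Sox10* in the oligodendrocyte lineage, is short and had 2 DMRs in opposite directions. The DMR over its coding exon 2 (chr17:25568590-25569601) had 4.66 in control and 21.1 in MMS (2.18), and the one 4735 bp upstream (chr17:25575421-25576155) had 22.6 and 4.79 (-2.24). The upstream one was nearer to a start of *Lmf1* (3297 bp) than to one of *Sox8*. *Foxj1*, the regulator of motile cilia and of ependymal cells, had a DMR 4073 bp downstream (chr11:116326444-116326631) with 37.3 in control and 9.71 in MMS (-1.94). This DMR was 76.1% repeat sequence. *Nkx6-1*, the last of the 5, is described with the hypothalamic genes. *Sox9*, *Sox10*, *Nkx2-2* and *Nkx6-2* had no DMR.

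Few genes of hypothalamic development had a DMR, and most of them are short. Of 28 regulators known from hypothalamic or ventral forebrain development, 2 had a DMR (7.14%, against 29.9% of all genes), *Lhx2* and *Nkx6-1*. Their median length was 5.55 kb. Under 10 kb, 1 of 19 had a DMR, against 15.4% of all genes of this length, and from 10 to 30 kb 0 of 8, against 24.3%. *Lhx2*, needed for forebrain, eye and tanycyte development, was the only one over 30 kb. Its DMR in intron 3 (chr2:38357681-38358646) had 0.889 normalised reads in control and 14.6 in MMS (4.04). *Nkx6-1*, a gene of ventral neural tube neurons and pancreatic beta cells, had 23.8 in control and 2.99 in MMS at 6388 bp downstream. Its difference of -2.99 was the largest towards control among the 64 DMRs, and the DMR was 65.2% repeat sequence. No DMR lay at *Nkx2-1*, *Six3*, *Six6*, *Sox2*, *Tbx3*, *Dlx1*, *Dlx2* or *Foxd1*.

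Genes of the midbrain, hindbrain and spinal cord had 8 DMRs, 4 of them higher in MMS, where 62.4% of all autosomal DMRs were. They lay at 5 of 19 genes (26.3%, against 29.9% of all genes). *Pax5*, known from the midbrain and hindbrain boundary and from B cells, had 4 of them. A pair in intron 5 stood 3275 bp apart and shared direction and size. The one beside the internal promoter had 32.0 normalised reads in control and 8.63 in MMS (-1.89), and the other (chr4:44649528-44650294) 42.8 and 11.9 (-1.85). The one in intron 1 (chr4:44698804-44700195) was also higher in control (34.8 against 9.13, -1.93). These values were alike over 3 separate DMRs of the gene. The DMR in intron 7 (chr4:44600147-44600668) went the other way, with 5.98 in control and 25.6 in MMS (2.10).

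The *Pax3* DMR, downstream of this gene of the dorsal neural tube and neural crest, had the largest difference towards MMS of the Pax family (chr1:78091358-78092232), with 1.46 normalised reads in control and 22.0 in MMS (3.91). The *Pax2* DMR (chr19:44746028-44746682) had 1.89 in control and 20.7 in MMS (3.45). It lay 9363 bp upstream of the GENCODE gene body but covered a RefSeq transcription start of *Pax2*, a gene of the midbrain and hindbrain boundary and of the kidney. *Lhx4*, needed for the pituitary and motor neurons, had the highest MMS mean of all 64 DMRs, 48.5 against 5.13 in control (3.24), in intron 2 (chr1:155714822-155715807). *Gata3*, known from T cells and from monoaminergic neurons, had 22.2 in control and 6.77 in MMS at 5069 bp downstream (chr2:9851630-9852009, difference -1.71).

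The *Hoxa10* DMR had the second largest difference towards control. Control had 12.0 normalised reads and MMS 1.64 (-2.87), which were the lowest control mean among DMRs higher in control and the lowest MMS mean of all 64. It was centred 729 bp upstream of an internal *Hoxa10* start and lay 4486 bp from *Hoxa9* and 6345 bp from *Hoxa11*. With a single CpG site, it was among the poorest in CpG, as was the *Nkx6-1* DMR.

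A list of genes of mesoderm, endoderm and blood had 10 DMRs at 9 of 35 genes (25.7%, against 29.9% of all genes). Of these DMRs 8 were higher in MMS, where 62.4% of all autosomal DMRs were. The list leaves out other regulators known mainly outside the nervous system, such as *Foxq1*, so these counts depend on its choice. *Foxm1*, which drives cell division, had a DMR over coding exon 2 and an internal start (chr6:128365432-128366014), with 0.889 normalised reads in control and 12.6 in MMS (3.83). *Tbx1*, a gene of the pharyngeal arches, had 1.68 in control and 17.4 in MMS at 8762 bp downstream (chr16:18571840-18572217, difference 3.37). *Sox30*, a gene of sperm development, had the largest difference towards control among the Sox genes (27.5 against 5.66, -2.28), at 6210 bp upstream (chr11:45973896-45974100).

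Further regulators had the largest difference of their own family in 1 of the directions. *Tbx19*, needed for the pituitary corticotroph cells that make ACTH, had 47.5 normalised reads in control and 9.71 in MMS at 9946 bp upstream (chr1:165170719-165171210, difference -2.29). It was the only T-box gene with a DMR higher in control. *Sox21*, which promotes neuronal differentiation, had 0.889 in control and 18.6 in MMS at 8335 bp downstream (chr14:118224341-118224897, difference 4.39), the largest towards MMS of the Sox family. *Dlx4* had a DMR over its last exon, exon 3 (chr11:95140483-95140767), with 0.889 in control and 12.5 in MMS (3.81).

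DMRs were also found at further forkhead genes. *Foxh1*, a partner of Smad proteins in Nodal signalling, had 0.889 normalised reads in control and 18.8 in MMS (4.40) at 562 bp downstream (chr15:76667293-76667663), in the body of *Kifc2*. *Foxn4*, a gene of retinal and spinal interneurons, had 0.889 and 17.9 (4.33) at 6454 bp upstream (chr5:114280261-114281175). *Foxn2* had 0.889 and 13.1 (3.88) at 2060 bp upstream (chr17:88437726-88438651) and 12.6 and 36.8 (1.54) in intron 4 (chr17:88480176-88480328). These 4 DMRs were all higher in MMS. *Foxi2* had 27.1 in control and 5.5 in MMS (-2.30) at 2516 bp upstream (chr7:135407054-135407792). *Foxq1*, a gene of hair and epithelia, had 14.3 and 2.97 (-2.27) at 1016 bp upstream (chr13:31554569-31555118).

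The DMRs of *Sox12*, *Sox13*, *Sox15*, *Tbx5*, *Tbx21* and *Pax1* lay in the flanks and were higher in MMS. *Sox12*, a relative of *Sox4* and *Sox11*, had 0.889 normalised reads in control and 13.1 in MMS (3.88) downstream (chr2:152383844-152384060). *Sox13*, a relative of *Sox5* and *Sox6*, had 1.41 and 9.92 (2.81) at 7754 bp downstream, in the body of *Etnk2* (chr1:133374336-133374549). *Sox15* had 15.6 and 43.7 (1.49) at 8916 bp downstream, but this DMR lay in the macrophage gene *Cd68*, 250 bp from its start (chr11:69665643-69665982). The *Sox12*, *Sox13*, *Sox15* and *Tbx21* DMRs were nearer to the start of another gene than to their own. *Tbx5*, a gene of heart and forelimb, had 9.13 and 26.9 (1.56) at 4274 bp upstream (chr5:119827621-119828394). *Tbx21*, which drives type 1 helper T cells, had 0.889 and 8.82 (3.31) at 8380 bp downstream (chr11:97088976-97089691). *Pax1*, a gene of the vertebral column, had 3.53 and 19.4 (2.46) downstream (chr2:147403200-147403616).

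Of the 64 DMRs, 35 were in a regulator's body (54.7%) and 29 only in its flanks, 12 upstream and 17 downstream. Of the DMRs at all autosomal protein-coding genes, 81.8% were in the body of some such gene, a count that also takes in DMRs in the body of a neighbour. Of the 35 in a body, 30 touched introns alone and 5 an exon, at *Dlx4*, *Foxm1*, *Foxp1* (2 DMRs) and *Sox8*, and 4 of these included coding sequence. The median distance from the DMR centre to a start of the same gene was 9749 bp. Within 1000 bp there were 6 DMRs (9.38%, against 7.99% of DMRs at any coding gene) and within 10000 bp 33 (51.6%, against 51.0%). The 5 promoter DMRs were at *Foxm1*, *Foxn3*, *Foxp1*, *Hoxa10* and *Pax5*. All of them lay at internal GENCODE starts, and none at the outer GENCODE start of a gene. The *Pax2* DMR, over a RefSeq start upstream of the GENCODE gene body, is not counted among them. For 55 of the 64 DMRs the nearest coding start was that of a regulator, and 6 of the flanking DMRs lay in the body of another coding gene.

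Neighbouring DMRs of a gene could differ in direction. Of 26 neighbouring pairs at the regulators, 15 (57.7%) were opposite, compared with 46.0% of such pairs at all autosomal protein-coding genes. Among neighbouring DMRs of the same gene less than 6 kb apart, those of *Foxp1*, *Foxl1*, *Foxk1*, *Sox5* and *Sox8* were opposite and those of *Pax5* were alike. This limit was chosen after the values were seen, and at all genes 46.0% of pairs this close were opposite. At *Foxl1*, a gene of the gut mesenchyme, 4893 bp separated a DMR (chr8:121131134-121131334) with 2.33 normalised reads in control and 15.6 in MMS (2.74) from one (chr8:121136228-121136656) with 37.5 and 15.3 (-1.29). Both lay downstream of *Foxl1* and within the coding annotation *Gm20388*, so they cannot be given to *Foxl1* alone.

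The window of 10 kb decided which genes at its border were counted. Just inside it were the DMRs of *Tbx19* (9946 bp), *Pax1* (9905 bp), *Sox12* (9551 bp) and *Pax2* (9363 bp). Just outside were those nearest to *Gata5* (11058 bp, difference 2.80), *Sox7* (11858 bp, -1.33), *Foxs1* (12013 bp, 3.68) and *Foxc2* (12239 bp, 2.74), the last being the DMR already counted for *Foxl1*.

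The DMRs were 153 to 2572 bp wide (median 571 bp, against 544 bp over all autosomal DMRs). Repeat sequence covered a median of 13.4% of a DMR at the regulators and 20.6% of an autosomal DMR, and at least 50% of 7 DMRs (10.9%, against 17.4%). Besides *Nkx6-1*, *Foxj1*, *Foxk1* and *Gata3*, these were at *Foxn2*, *Foxn4* and *Sox12*. The part of repeats in these values was not tested.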

How the data were processed

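meDIP sequencing was read from 3 control and 3 MMS pools. Per the paper's methods, alignment by the authors was to mm10 in Torrent Suite, and broad peaks were taken against the inputs in MACS2 (2.1, per the processing notes) with the human genome size setting. The authors normalised to inputs with the IgG signal subtracted, compared groups with DiffBind and DESeq2 and annotated regions with HOMER (4.8). The deposited log2 values used here are the authors' means of normalised reads over all libraries and over each group. The headers call the groups untreated and treated, read here as control and MMS. The deposited table also holds the authors' own fold change, p-value and FDR per region, which were not used. The inputs and the IgG library were not analysed here by themselves.

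The difference was the MMS mean minus the control mean, and normalised reads are 2 to the power of the log2 value. The mean over all libraries matched the group means within 0.01. Gene bodies, transcripts and starts came from GENCODE, CpG, GC and repeat content from the GRCm38 sequence, and the Pax2 sequence from RefSeq, where 110 of the 168 genes were matched by symbol. Python 3.11.15, numpy 2.4.6, pandas 2.3.3 and matplotlib 3.10.9 were used, and the overlap code was tested on simulated data. No test between groups was run, since there are no values per pool.

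The genes, gene lists and window were chosen with earlier results of these data known. Named genes were those with a DMR in a promoter or exon, with 3 or more DMRs, with the largest difference of a family in each direction, or in the hypothalamic, glial or neuronal forkhead list. Other named genes, with a DMR or just outside the window, were chosen after their values were seen. A few items are not reported here. Alternatives varied the window, the overlap, the minimum difference and width, the lowest values, repeats and the promoter.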

Additional observations from a re-analysis of the deposited data

How the results depend on the processing

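The number of regulators with a DMR depended on the window. It was 40 with 10 kb, 17 with the gene body alone, 25 with 5 kb and 64 with 25 kb. Of all autosomal protein-coding genes, 29.9% had a DMR with 10 kb and 19.7% in the gene body. Their shares with 5 kb and 25 kb are not given here, so the counts at these windows cannot be set against all genes. The number of DMRs was 35 in the gene body alone, and 37 without the 5 genes that have 3 or more DMRs, an alternative chosen after seeing the data. The share higher in MMS was 64.1% (95% Wilson interval 51.8 to 74.7, counting error only). This interval treats the DMRs as independent and leaves out the spread between pools. The share was 78.7% for differences of at least 2. This limit takes out mostly DMRs higher in control, whose median difference was -1.93, against 3.43 for those higher in MMS. The share over all autosomal DMRs at this limit is not given here. With both groups above their lowest values, a limit that takes out only DMRs higher in MMS, the share was 46.5%, against 47.1% of such autosomal DMRs. The promoter DMRs were 5, then 8 with a promoter of 2000 bp upstream to 500 bp downstream, and 0 with the outer GENCODE gene start alone. These alternatives take in other DMRs or starts by construction. Under the other alternatives the counts stayed within 1.5 times. Allowing symbols with letters after the number added no gene and so tests nothing. No paired analysis was possible because the table holds no values per library, and for the same reason no pool could be left out. The read depth behind each value is not in the table, and a gene without a DMR was not shown to be equal between the groups.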

Other observations

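Other homeobox genes and regulators of the hypothalamus that carry other family names were counted in the same way, from a list chosen with earlier results of these data known. Of 99 such genes, 23 (23.2%) had a DMR, against 29.9% of all autosomal protein-coding genes. Of their DMRs 23 were higher in MMS and 15 in control, and 62.4% of all autosomal DMRs were higher in MMS. *Zfhx3*, a zinc finger homeobox gene expressed in the suprachiasmatic nucleus, had 8 DMRs over its 1020 kb, with differences from -2.32 to 3.57. *Tshz2* had 5 DMRs, from -2.53 to 3.56, and *Cux2* had 3, from 2.03 to 3.36. *Bsx*, a homeobox gene of the neurons of the arcuate nucleus that make NPY and AgRP, had 1 DMR with a control mean of 4.89 and an MMS mean of 3.39 on the log2 scale (-1.50). *Hmx3*, a gene of hypothalamic and inner ear development, had 1 DMR with control at the lowest value, -0.17, and an MMS mean of 3.63 (3.80).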
